A study of Mus musculus with 18 samples.

Results

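The 10 genes described here carry out antigen presentation on major histocompatibility complex (MHC) class I. They were taken by symbol as the classical heavy chain genes H2-K1 and H2-D1, the light chain gene B2m, the peptide transport and loading genes Tap1, Tap2 and Tapbp, the immunoproteasome subunit genes Psmb8, Psmb9 and Psmb10, and the regulator Nlrc5. All 10 of 10 symbols were found among the 24485 genes of the files, and all 10 passed the filter on low counts in each of the 11 comparisons. RNA was sequenced from macrophages grown from the bone marrow of adult male mice. There were 18 libraries in 6 groups of 3, where the same replicate number in different groups stood for the same mouse. The comparisons address how a BET bromodomain inhibitor, JQ1, and the cytokine IL-10 alter the response to lipopolysaccharide (LPS), a component of the bacterial outer membrane.

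Each library, controls included, came from Il10-/- mice on the C57BL/6J background, in which the Il10 gene is disrupted, and no wild-type library was used. Il10 itself still had between 27.1 and 177 normalised counts in the 18 libraries, with no wild-type value to compare. Bone marrow was cultured for 6 days in medium conditioned by L929 fibroblasts. Unstimulated cells received neither compound nor LPS. The JQ1 group was given (+)-JQ1 at 500 nM, and the IL-10 group was given recombinant IL-10 at 10 ng/mL. A pretreatment of 12 h is listed for both groups, and their total time of exposure is not given here. For the groups given LPS, a pretreatment of 12 h with neither agent, with JQ1 or with IL-10 was followed by LPS at 50 ng/mL for 4 h. The labels call the pretreatment before LPS alone untreated, whereas a vehicle is named in the study's methods. The macrophage markers Adgre1, Cd68, Csf1r, Lyz2, Itgam, Mertk, Cd14 and Mrc1 added up to between 14104 and 29097 TPM (a relative abundance scaled for gene length), lowest with LPS, and no list of markers for dendritic cells, T cells, B cells, NK cells, neutrophils, stromal cells or mast cells added up to more than 10.3 TPM in any library.

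MHC class I molecules display peptides from the inside of a cell to CD8 T cells. Proteasomes cut proteins into peptides, the transporter formed by TAP1 and TAP2 carries the peptides into the endoplasmic reticulum, tapasin (Tapbp) holds empty class I molecules at the transporter, and a stable complex of heavy chain, B2m and peptide travels to the surface. Inflammatory signals, the interferons above all, raise many of these genes in macrophages, and NLRC5 is the transactivator that acts on the class I promoters through proteins bound at their X and Y boxes.

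Promoter sequence was available from RefSeq (build GRCm38.p6) for 8 of the 10 genes. No entry was matched for Tap2 and Nlrc5. The 250 bases before the start site are shown for the heavy chains, B2m and Tap1, because the first 3 encode the surface molecule and yet responded unlike each other to JQ1, and Tap1 was among the genes that responded most. They lie at chr17:34000334-34000583 (minus strand), chr17:35262844-35263093 (plus strand), chr2:122147437-122147686 (plus strand) and chr17:34187306-34187555 (plus strand), and H2-K1 is shown for the second of its start sites. Capitals mark matches to the motifs searched on both strands, which are kappaB, the IRF half-site pair GAAANNGAA, the GAS motif TTCNNNGAA, the X2 box core TGACG and the Y box core CCAAT.
H2-K1: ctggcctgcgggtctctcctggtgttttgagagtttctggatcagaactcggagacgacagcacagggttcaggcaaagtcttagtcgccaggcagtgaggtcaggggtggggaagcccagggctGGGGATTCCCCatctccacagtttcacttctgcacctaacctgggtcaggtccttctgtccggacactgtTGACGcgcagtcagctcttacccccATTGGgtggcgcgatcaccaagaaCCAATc
H2-D1: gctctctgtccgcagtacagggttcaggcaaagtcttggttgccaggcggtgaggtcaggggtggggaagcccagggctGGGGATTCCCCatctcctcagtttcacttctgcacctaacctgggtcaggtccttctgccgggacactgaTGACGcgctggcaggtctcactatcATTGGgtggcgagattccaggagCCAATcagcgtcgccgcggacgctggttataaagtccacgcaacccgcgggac
B2m: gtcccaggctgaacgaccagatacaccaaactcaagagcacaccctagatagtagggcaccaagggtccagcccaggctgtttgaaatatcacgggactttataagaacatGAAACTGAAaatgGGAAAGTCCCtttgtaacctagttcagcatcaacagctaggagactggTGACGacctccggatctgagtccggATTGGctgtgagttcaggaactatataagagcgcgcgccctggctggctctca
Tap1: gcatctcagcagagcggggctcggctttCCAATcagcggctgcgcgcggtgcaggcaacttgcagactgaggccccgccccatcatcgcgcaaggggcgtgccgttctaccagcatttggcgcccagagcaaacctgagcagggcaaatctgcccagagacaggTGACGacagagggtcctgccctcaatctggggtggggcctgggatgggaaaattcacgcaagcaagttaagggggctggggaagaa

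The heavy chain stretches shared a run of 47 identical bases. Both held kappaB, X2 core and Y core matches in the same order. B2m held the same 3 motifs and was the only one of the 8 genes with a match to the IRF pair, 139 bases before its start. Only the pattern GAAANNGAA was searched, so windows without a match may hold interferon response sites of other sequence. Tap1 and Psmb9 are transcribed in opposite directions from a shared stretch in which their windows overlap by 275 bases, so the X2 and Y cores there belong to both. Of the other windows, Tapbp held Y cores, Psmb8 held a GAS match and Psmb10 held none of the 5 motifs. Among all 32851 windows of 300 bases, 4.51% held kappaB, 8.56% the IRF pair, 8.30% GAS, 20.8% the X2 core and 37.4% the Y core. The matches describe the sequence only, and no binding was measured in these libraries.

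In the unstimulated group, replicate 1 was the highest of 3 for 10 of 10 class I genes, with a median log2 excess over the other two of 0.53, where 33.6% of all genes were highest in that library. It was also the highest for 10 of 10 interferon response genes (Ifit1, Ifit2, Ifit3, Isg15, Mx1, Oasl1, Irf7, Rsad2, Cxcl10 and Gbp2), with a median excess of 2.07. Irf7 counts were 788, 237 and 252 in replicates 1, 2 and 3, and Gbp2 counts were 619, 67.7 and 82.5. The part of this library's interferon genes in the class I values was not tested. All comparisons with unstimulated cells were therefore also made without it, an alternative chosen after its values were seen.

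**Figure D1:**
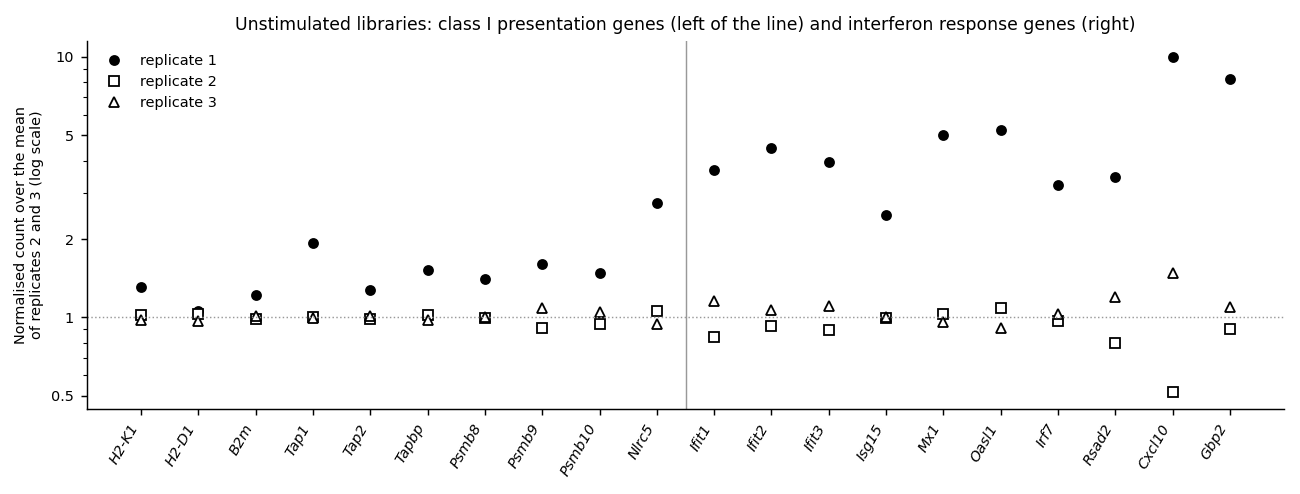
Normalised counts in the 3 unstimulated libraries divided by the mean of replicates 2 and 3 (log scale), for the 10 class I genes and 10 interferon response genes. Replicate 1, the filled circle, is the highest for all 20.

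LPS raised all 10 genes (Wald test of DESeq2 with Benjamini-Hochberg adjustment over all genes tested, called at an adjusted p under 0.05, as for every call here). Across all genes tested, 31.6% were called higher and 32.9% lower. The rise was smallest for the surface molecule, between 2.07-fold for H2-D1 and 3.05-fold for H2-K1, intermediate for Tapbp and the immunoproteasome subunits, and largest for Tap2 (11.1-fold), Tap1 (22.7-fold) and Nlrc5 (27.8-fold). The LPS and unstimulated libraries did not overlap for any of the 10, but the share of all genes without overlap is not given. In these bulk cultures, less RNA per cell and fewer cells that express a gene cannot be told apart. The size of the rise depended on how libraries were scaled, because the median change of all genes tested was -0.07 on the log2 scale with the size factors used here and -1.02 with total-count scaling. Under total-count scaling 9 of the 10 were called higher, and H2-D1 was not (log2 fold change 0.12, adjusted p 0.0981).

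JQ1 given before LPS split the group. Against LPS alone, 8 genes fell (B2m, Tap1, Tap2, Tapbp, Psmb8, Psmb9, Psmb10 and Nlrc5), H2-K1 rose and H2-D1 did not pass, when 24.4% of all genes tested were called higher and 32.9% lower. Without LPS, 2 rose (H2-K1 and H2-D1), 7 fell and B2m did not pass, with 21.9% of all genes called higher and 23.7% lower. None of the 10 was called with IL-10, with or without LPS.

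**Figure D2:**
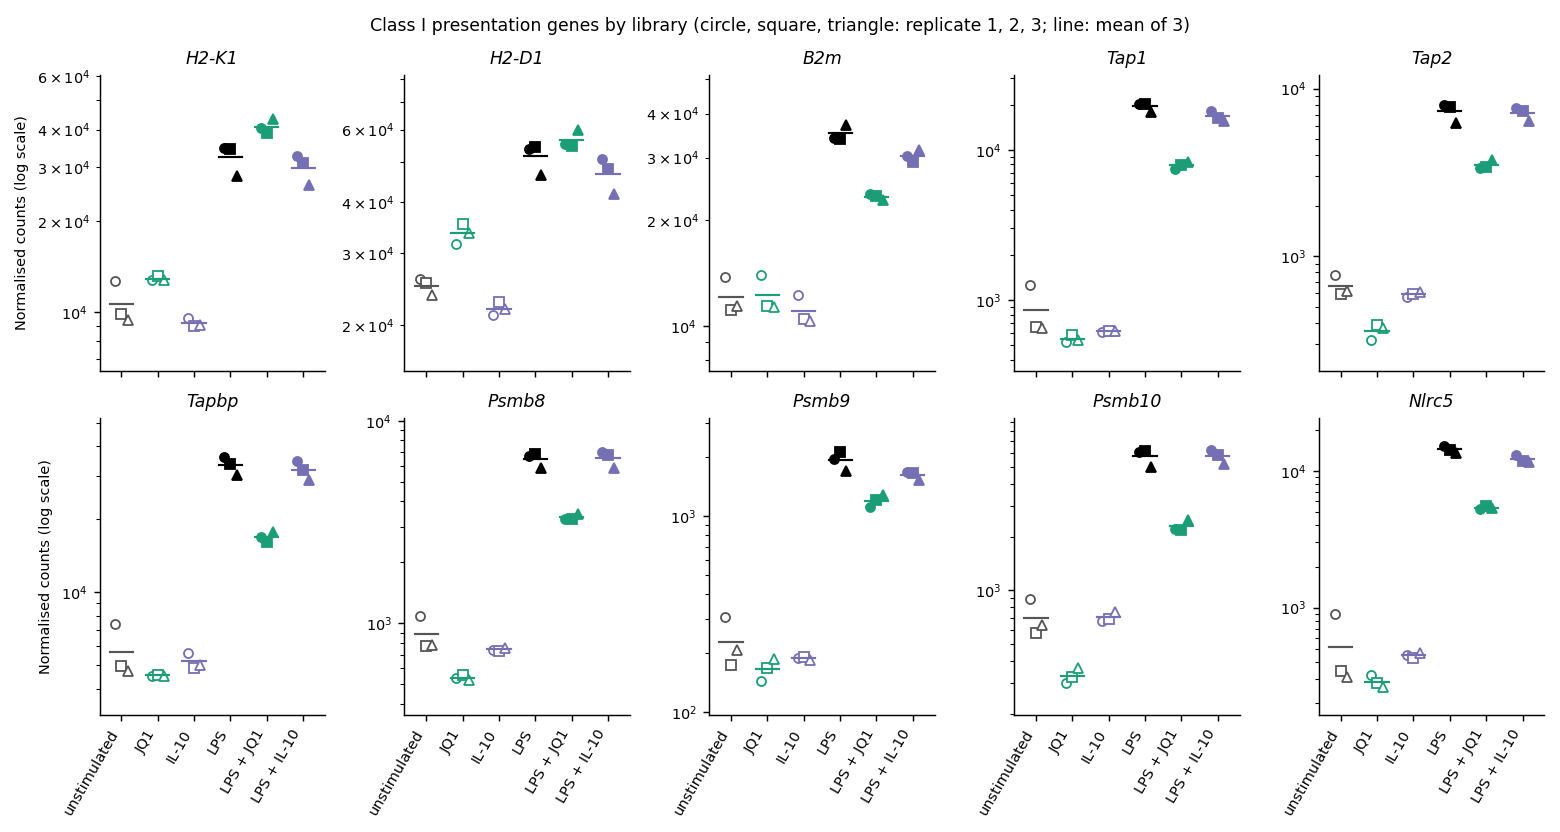
Normalised counts (log scale, with a separate range for each gene) of the 10 class I presentation genes in the 18 libraries. Circles, squares and triangles are replicates 1, 2 and 3, lines are means of 3, and filled points were given LPS. With LPS + JQ1, H2-K1 and, by a narrow margin, H2-D1 lay above all LPS libraries. B2m, Tap1, Tap2, Tapbp, Psmb8, Psmb9, Psmb10 and Nlrc5 lay below them, and the share of all genes without overlap is not given.

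**Figure D3:**
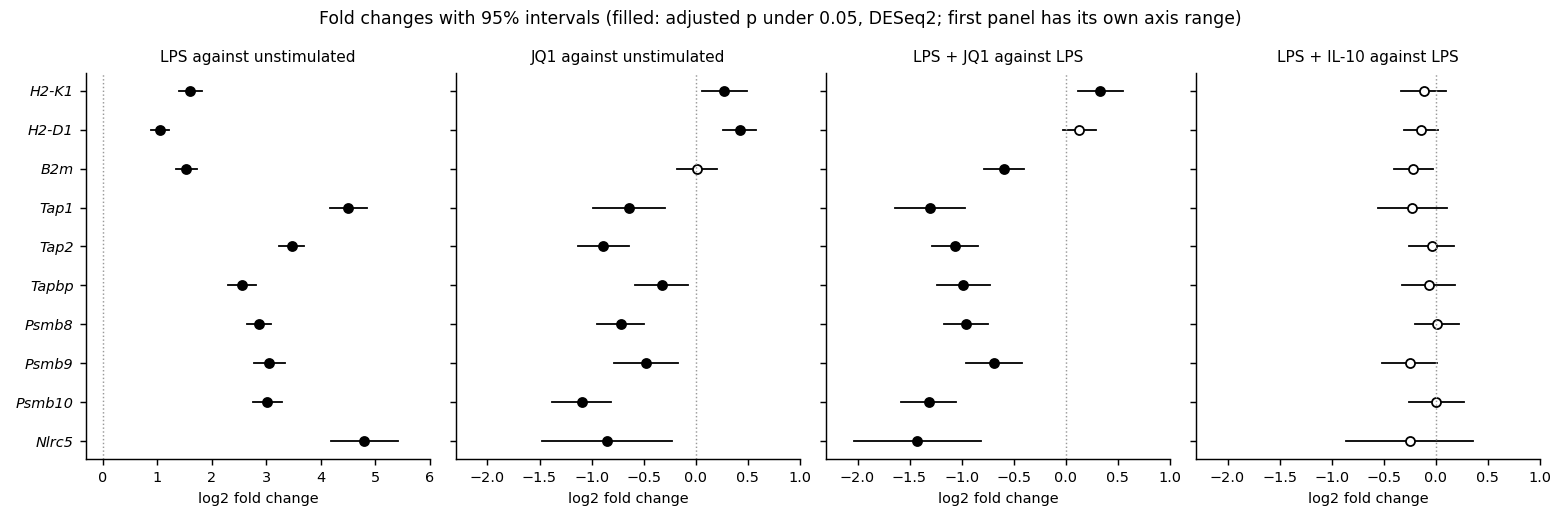
Log2 fold changes (horizontal axis) of the 10 genes in 4 comparisons, with 95% intervals from DESeq2. Filled points passed an adjusted p of 0.05. All 10 are filled for LPS, 9 for JQ1 without LPS, 9 for JQ1 with LPS, and none for IL-10 with LPS.

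H2-K1 (mm9, chr17:34132962-34137278, minus strand) encodes a heavy chain, the part of the class I molecule that holds the peptide. Its normalised counts (counts divided by a size factor for each library) in replicates 1, 2 and 3 were 12638, 9853 and 9419 for unstimulated cultures, 12730, 13146 and 12775 after JQ1, and 9534, 8969 and 9055 after IL-10. These values were 34676, 34502 and 28222 under LPS, 40394, 39103 and 43271 under LPS + JQ1, and 32693, 30929 and 26167 under LPS + IL-10. The LPS + JQ1 libraries were the highest of the 6 groups and did not overlap those of LPS, among which replicate 3 was low. JQ1 left H2-K1 1.26-fold higher during LPS stimulation (log2 fold change 0.33, SE 0.11, adjusted p 0.00502). This call rested on replicate 3: without that replicate the log2 fold change was 0.21 and the adjusted p 0.0850. With total-count scaling the difference was larger (0.71). Without LPS the JQ1 libraries were also above the unstimulated ones (0.28, SE 0.11, adjusted p 0.0288), but by only 0.10 under total-count scaling, where the adjusted p was 0.471, and it did not pass without replicate 2 (0.21, adjusted p 0.31) or replicate 3 (0.20, adjusted p 0.122).

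H2-D1 (chr17:35399675-35404444, plus strand) encodes the second heavy chain. Normalised counts by library were 25911, 25271 and 23667 for unstimulated cultures and 31536, 35230 and 33598 after JQ1, which did not overlap. These values were 53930, 54569 and 46515 under LPS, 55246, 54670 and 59765 under LPS + JQ1, and 50828, 47985 and 41709 under LPS + IL-10. JQ1 raised H2-D1 without LPS (log2 fold change 0.42, SE 0.08, adjusted p 1.18e-06). During LPS stimulation the difference was 0.13 (SE 0.08, 95% interval -0.03 to 0.29, adjusted p 0.164), and the lowest LPS + JQ1 library lay just above the highest LPS library. The call changed with the scaling, since the TMM factors of edgeR's quasi-likelihood test gave 0.23 (adjusted p 0.0264) and total-count scaling gave 0.51 (adjusted p 2.00e-12). For both heavy chains the counts were fractional in 18 of 18 libraries, which shows that RSEM divided reads between similar genes, so reads from other class I genes may be included.

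B2m (chr2:121973422-121978819, plus strand), which encodes the light chain common to class I molecules, went the other way. Normalised counts by library were 13761, 11130 and 11409 for unstimulated cultures, 13958, 11381 and 11342 after JQ1, and 12217, 10457 and 10334 after IL-10. LPS brought them to 34180, 33974 and 37237, and they reached 23665, 23352 and 22794 under LPS + JQ1 and 30240, 29107 and 31508 under LPS + IL-10. Replicate 1 was the highest in each group without LPS, and the 3 LPS groups did not overlap each other. JQ1 lowered B2m 1.51-fold during LPS stimulation (log2 fold change -0.59, SE 0.10, adjusted p 3.46e-09). Without LPS the groups overlapped and the difference was 0.01 (SE 0.10, 95% interval -0.18 to 0.20, adjusted p 0.928). Under total-count scaling the fall with LPS was -0.22 and no longer passed (adjusted p 0.0635). The annotation places Patl2 across the same stretch, and reads were assigned without regard to strand. The counts of B2m were fractional in 0 of 18 libraries, so they showed no division of reads between genes.

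Because a heavy chain and B2m are made into 1 complex, their levels were compared within each library as a ratio of TPM, which does not depend on the scaling between libraries. The H2-K1 to B2m ratio in replicates 1, 2 and 3 was 0.418, 0.406 and 0.380 for unstimulated cultures, 0.462, 0.469 and 0.348 under LPS, and 0.778, 0.772 and 0.881 under LPS + JQ1. It was 0.414, 0.525 and 0.520 with JQ1 alone, and 0.494, 0.494 and 0.379 under LPS + IL-10. All 3 LPS + JQ1 libraries lay above every other library. Against LPS the ratio was 1.92-fold higher (log2 difference 0.94, between 0.72 and 1.34 in the 3 mice), or 0.73 on the log2 scale without replicate 3. The exact two-sided permutation test gave p = 0.1, the smallest that 3 libraries against 3 allow, and 5 ratios were examined in 9 comparisons each. Like every permutation test here, it shuffled all libraries of the 2 groups freely and did not use the pairing by mouse, so its p does not apply to paired libraries. LPS alone did not separate the groups (log2 difference 0.07, exact permutation p = 0.6).

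**Figure D4:**
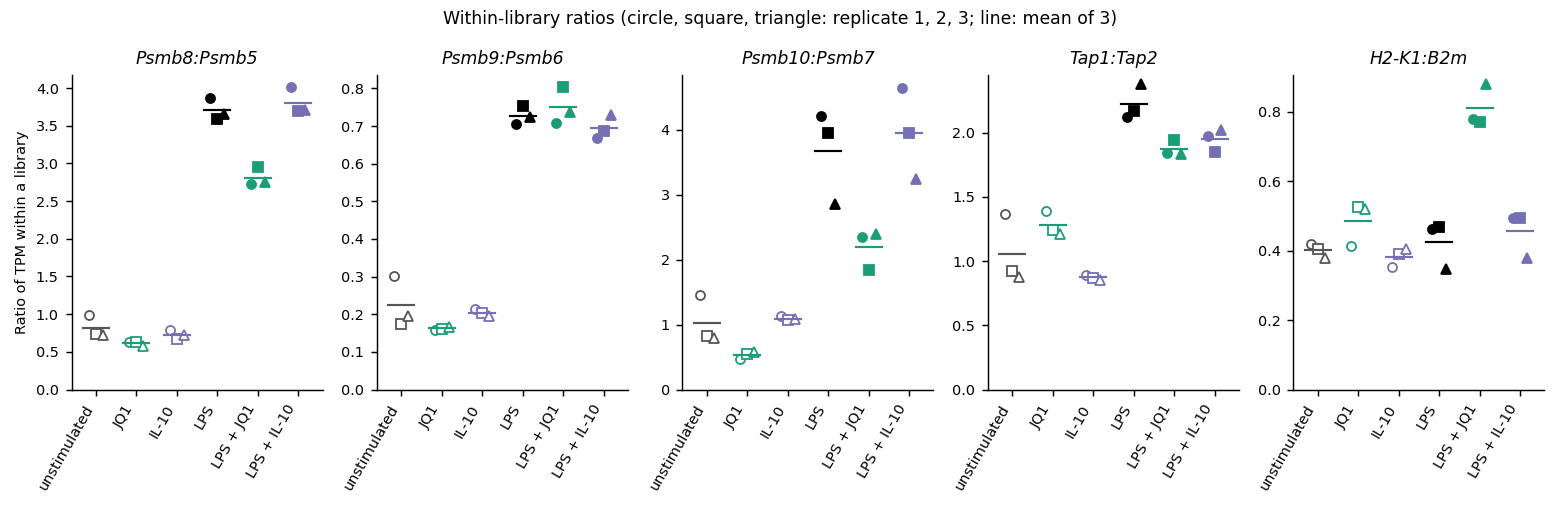
Ratios of TPM within each library (vertical axes, starting at 0) for 3 pairs of an immunoproteasome subunit and the constitutive subunit it replaces, for Tap1 over Tap2 and for H2-K1 over B2m. Points are replicates 1, 2 and 3 and lines are means of 3. The H2-K1 to B2m ratio is at 0.772 or more in LPS + JQ1 libraries and at 0.525 or less elsewhere.

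Tap1 (chr17:34324498-34334170, plus strand) and Tap2 (chr17:34340472-34353266, plus strand) encode the subunits of the peptide transporter. Normalised counts of Tap1 by library were 1257, 658 and 649 for unstimulated cultures, 526, 584 and 539 after JQ1, and 610, 619 and 626 after IL-10. These values were 20289, 20216 and 17896 under LPS, 7470, 7915 and 8286 under LPS + JQ1, and 18214, 16256 and 15533 under LPS + IL-10. Unstimulated replicate 1 stood above the other two of its group, and the LPS + JQ1 libraries lay well below the other libraries given LPS. JQ1 lowered Tap1 2.47-fold during LPS stimulation (log2 fold change -1.30, SE 0.17, adjusted p 1.01e-13). Tap2 fell 2.09-fold (-1.06, SE 0.11, adjusted p 2.06e-20), from 7335 ± 922 (SD, n = 3) to 3509 ± 221 normalised counts. Even so, LPS + JQ1 cells had 14.4 times the Tap1 and 9.78 times the Tap2 of cells given JQ1 alone.

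The transporter subunits did not keep a fixed ratio. Tap1 over Tap2 in TPM was 1.36, 0.921 and 0.878 for unstimulated cultures and 2.13, 2.17 and 2.38 under LPS, in replicates 1, 2 and 3. It was 1.85, 1.95 and 1.84 under LPS + JQ1 and 1.98, 1.85 and 2.02 under LPS + IL-10. The ratio rose 2.15-fold with LPS and was lower than with LPS alone both after JQ1 (log2 difference -0.24) and after IL-10 (-0.19), without overlap in these 3 comparisons (exact permutation p = 0.1 in each, the smallest possible).

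Tapbp (chr17:34052844-34066235, plus strand; Zbtb22 overlaps it) encodes tapasin, which bridges the transporter and the empty class I molecule. Its normalised counts by library (replicates 1, 2 and 3) were 36168, 33815 and 30280 under LPS and 16931, 16116 and 17648 under LPS + JQ1. The groups were far apart, and JQ1 lowered Tapbp 1.98-fold (log2 fold change -0.98, SE 0.13, adjusted p 2.61e-13). Without LPS the fall was -0.33 (SE 0.13, adjusted p 0.030), from 5704 ± 1475 to 4550 ± 24.9 (SD, n = 3). It was -0.09 and did not pass (adjusted p 0.460) without unstimulated replicate 1, and without replicate 2 of each group it was -0.42 (adjusted p 0.0559).

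The inducible subunits Psmb8 (chr17:34334666-34338399, plus strand), Psmb9 (chr17:34318933-34324709, minus strand) and Psmb10 (chr8:108459628-108462292, minus strand) replace the catalytic subunits Psmb5, Psmb6 and Psmb7 when an immunoproteasome is assembled. Normalised counts of Psmb10 by library were 895, 570 and 633 for unstimulated cultures, 300.1, 323 and 364 after JQ1, and 667, 689 and 752 after IL-10. These values were 6046, 6117 and 4980 under LPS, 2220, 2182 and 2487 under LPS + JQ1, and 6225, 5831 and 5145 under LPS + IL-10. The JQ1 libraries were the lowest both without and with LPS and overlapped no others at the same LPS state. JQ1 lowered Psmb10 2.49-fold with LPS (log2 fold change -1.32, SE 0.14, adjusted p 1.63e-21) and 2.13-fold without it (-1.09, SE 0.14, adjusted p 3.73e-13).

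Psmb8 fell from 6484 ± 549 to 3339 ± 120 normalised counts (SD, n = 3) with JQ1 during LPS stimulation (log2 fold change -0.96, SE 0.11, adjusted p 9.45e-18). Psmb9 fell from 1931 ± 214 to 1200 ± 84.8 (-0.69, SE 0.14, adjusted p 1.59e-06). In the annotation used for gene positions, Psmb9 and Tap1 overlap by 212 bases on opposite strands. Counts were fractional in 0 of 18 libraries for Psmb9 and in 3 of 18 for Tap1, so those of Psmb9 showed no division of reads between genes. How reads in the shared stretch were assigned was not tested.

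The constitutive subunits rose with LPS as well, by less: log2 fold changes were 0.69 for Psmb5, 1.37 for Psmb6 and 1.17 for Psmb7. With JQ1 they fell against LPS by 0.56, 0.73 and 0.57 on the log2 scale, and all 3 were called in both comparisons. The TPM ratio of Psmb8 to Psmb5 in replicates 1, 2 and 3 was 0.983, 0.736 and 0.721 for unstimulated cultures, 3.87, 3.59 and 3.65 under LPS, and 2.73, 2.95 and 2.76 under LPS + JQ1. The Psmb10 to Psmb7 ratio averaged 1.03 ± 0.373 in unstimulated cells, 3.68 ± 0.717 with LPS and 2.20 ± 0.306 with LPS + JQ1 (SD, n = 3). Both ratios rose with LPS and were lower with LPS + JQ1 than with LPS, without overlap. The Psmb9 to Psmb6 ratio rose with LPS too, from 0.223 ± 0.0684 to 0.728 ± 0.0237, but was 0.750 ± 0.0491 with LPS + JQ1 (SD, n = 3), where the groups overlapped (log2 difference 0.04, exact permutation p = 0.6). The permutation p for the separated pairs was 0.1, the smallest possible.

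Psmb9, Tap1, Psmb8 and Tap2 lie in this order within 34334 bases of the class II region. Tap1 ends 496 bases before Psmb8 starts, and Psmb8 ends 2073 bases before Tap2 starts. These neighbours nevertheless rose by unequal amounts, from 7.32-fold for Psmb8 to 22.7-fold for Tap1 with LPS, although Tap1 and Psmb9 (8.33-fold) share their promoter stretch.

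**Figure D5:**
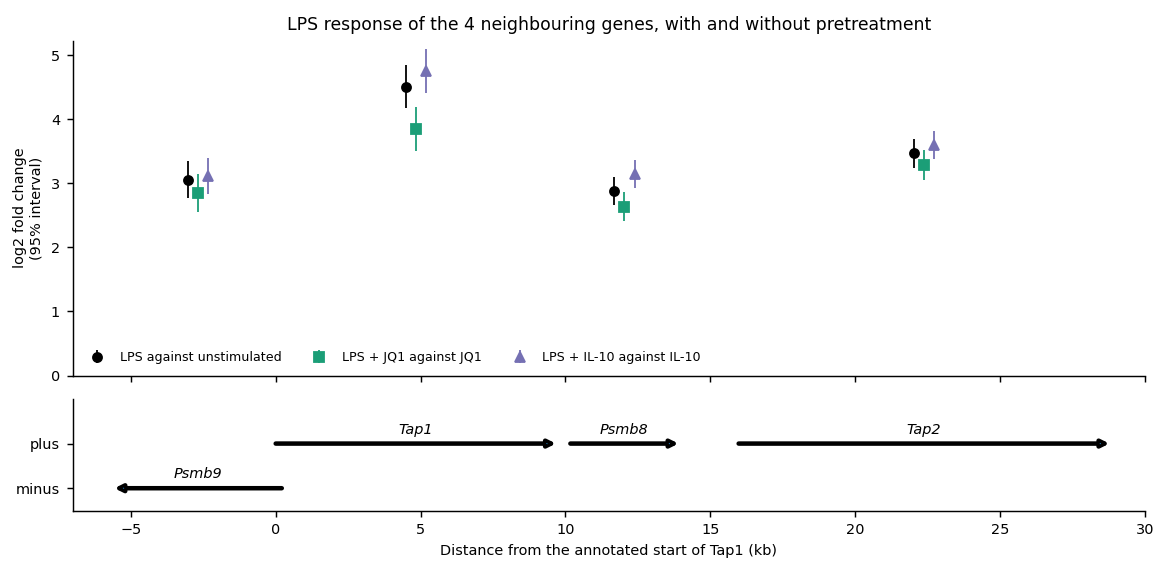
Log2 fold changes with LPS (95% intervals) of 4 neighbouring genes, without pretreatment, after JQ1 and after IL-10, above arrows that give their extent and direction by distance from the Tap1 start in kb. Tap1 stands above its neighbours in each of the 3 comparisons, and its value after JQ1 (3.84) is below that without JQ1 (4.50).

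Nlrc5 (chr8:96996663-97051172, plus strand) had the lowest TPM of the 10 in every group and the largest rise with LPS. Its normalised counts by library (replicates 1, 2 and 3) were 900.2, 345 and 309 for unstimulated cultures, 321, 279 and 263 after JQ1, and 452, 429 and 468 after IL-10. These values were 15337, 14369 and 13583 under LPS, 5253, 5506 and 5333 under LPS + JQ1, and 13044, 11807 and 11620 under LPS + IL-10. Each group was tight except the unstimulated one, where replicate 1 was far above the other two. The largest fall with JQ1 during LPS stimulation among the 10 was that of Nlrc5, at 2.69-fold (log2 fold change -1.43, SE 0.31, adjusted p 1.35e-05).

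Without unstimulated replicate 1, LPS still raised all 10 genes, and the log2 fold change of Nlrc5 grew from 4.80 to 5.48. The effect of JQ1 in unstimulated cells was less broad: 2 genes rose and 4 fell in place of 7. Psmb10 (log2 fold change -0.88), Tap2 (-0.76), Psmb8 (-0.54) and Tap1 (-0.25) remained lower with JQ1, whereas Nlrc5 (-0.17, adjusted p 0.230), Psmb9 (-0.22, adjusted p 0.224) and Tapbp (-0.09, adjusted p 0.460) did not pass. H2-K1 (0.42) and H2-D1 (0.45) were still called higher. When replicate 1 was left out of all groups, Tap1 was at -0.21 and did not pass either (adjusted p 0.131).

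Whether JQ1 acted differently with and without LPS was tested as an interaction. Of the 10 genes, 4 were called, all with a more negative effect of JQ1 when LPS was present: H2-D1 (difference of log2 fold changes -0.29, adjusted p 0.0288), B2m (-0.61, adjusted p 4.79e-05), Tap1 (-0.66, adjusted p 0.0194) and Tapbp (-0.66, adjusted p 0.00148). Across all genes tested 17.7% were called higher and 23.8% lower. Without unstimulated replicate 1 the count was 8, with Nlrc5 at -1.26 and Tap1 at -1.05. Without replicate 2 of each group the calls of H2-D1 (-0.19), Tap1 (-0.43) and Tapbp (-0.52) were lost, without replicate 3 that of Tap1 (-0.60), and without replicate 1 that of H2-D1 (-0.32). The direction was not stable for each gene, because under total-count scaling no gene was called lower and 3 were called higher, H2-K1 (0.61), H2-D1 (0.26) and Tap2 (0.38). That scaling moved the median interaction of all genes from -0.05 to 0.51. With edgeR and with TMM scaling only B2m and Tapbp kept their calls. With limma on log2(TPM + 1) none was called lower, and H2-K1 (0.56) and H2-D1 (0.22) were called higher.

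The rise with LPS was still seen after JQ1. All 10 genes were called higher in LPS + JQ1 than in unstimulated cells, with 30.1% of all genes called higher and 32.3% lower, and all 10 were higher in LPS + JQ1 than in JQ1 cells, with 27.6% higher and 31.0% lower. Over unstimulated cells, Nlrc5 was 10.3-fold higher in LPS + JQ1 cells in place of 27.8-fold with LPS, and Psmb10 was 3.27-fold in place of 8.13-fold. H2-K1 was 3.85-fold in place of 3.05-fold. Over cells given JQ1 alone, which start lower for Psmb10, the rise of Psmb10 was 6.97-fold, and the interaction test above did not call Psmb10 or Nlrc5. Without unstimulated replicate 1 it called both, Psmb10 at -0.43 (adjusted p 0.0225) and Nlrc5 at -1.26 (adjusted p 1.82e-20). Under total-count scaling of all libraries neither was called (0.33 for Psmb10 and -0.02 for Nlrc5).

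With LPS + IL-10 against LPS, 0 of 10 were called by DESeq2, where 8.38% of all genes were called higher and 8.81% lower. At an unadjusted p under 0.05, for which no share of all genes is given, there was 1 of 10 by DESeq2 and 1 by edgeR, whose adjusted p called 0. Log2 fold changes ran from -0.25 for Psmb9 to 0.01 for Psmb8, and the 95% intervals excluded a fall beyond -0.33 for H2-K1, -0.26 for Tap2 and Psmb10, and -0.86 for Nlrc5. Compared within each mouse, 7 of the 10 genes had fewer normalised counts with LPS + IL-10 than with LPS in 3 of 3 mice (H2-K1, H2-D1, B2m, Tap1, Tapbp, Psmb9 and Nlrc5), and none had more in all 3. The share of all genes lower in 3 of 3 mice is not given, and such counts depend on the scaling. By limma on log2(TPM + 1), 6 of the 10 log2 fold changes were below 0 and 4 above, against 8 and 2 in the main test. B2m differed by -0.21 (SE 0.10, adjusted p 0.121), and with the mouse as a block it passed (-0.21, adjusted p 0.0483). Without unstimulated replicate 1, which was in the fit but in neither group compared, Nlrc5 (-0.25, adjusted p 0.00473) and Tap1 (-0.22, adjusted p 0.0177) passed instead. In a DESeq2 fit to the LPS and LPS + IL-10 libraries only, Nlrc5 (-0.235, adjusted p 0.211) and Tap1 (-0.211, adjusted p 0.346) did not pass. Why the calls differed was not tested. Without replicate 1 of every group, B2m (-0.24), Tap1 (-0.26) and Nlrc5 (-0.26) all passed, at adjusted p between 0.0438 and 0.0473. After IL-10, LPS raised all 10 genes against IL-10 alone, with 33.2% of all genes called higher and 33.8% lower.

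IL-10 without LPS also called 0 of 10, against 1.80% of all genes called higher and 1.01% lower by adjusted p. At an unadjusted p under 0.05 there were 4 by DESeq2 and 4 by edgeR, but 1 by limma on log2(TPM + 1) and 1 by DESeq2 without unstimulated replicate 1. The share of all genes at that unadjusted threshold is not given. For Nlrc5 the result turned on unstimulated replicate 1. The IL-10 libraries (452, 429 and 468) lay between that library (900.2) and the other two (345 and 309), so the log2 fold change was -0.21 with it and 0.48 without it, and the latter was called (adjusted p 3.09e-04). The interaction of IL-10 and LPS called 0 of 10, against 4.00% of all genes higher and 3.44% lower. At an unadjusted p under 0.05 it was 0 by DESeq2 and 0 by edgeR. Without unstimulated replicate 1 it called 1 of 10.

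LPS + JQ1 cells differed from LPS + IL-10 cells in all 10 genes, with 23.8% of all genes higher and 31.6% lower. H2-K1 (log2 fold change 0.45) and H2-D1 (0.27) were higher with LPS + JQ1, and the other 8 were lower, from -0.38 for B2m to -1.32 for Psmb10. The libraries did not overlap for any of the 10, and here too the share of all genes without overlap is not given. Without replicate 3, H2-D1 was at 0.16 and did not pass (adjusted p 0.0884). B2m and Psmb9 did not pass with total-count scaling (-0.10, adjusted p 0.446, and -0.16, adjusted p 0.347) or with limma on log2(TPM + 1) (-0.19, adjusted p 0.199, and -0.25, adjusted p 0.167).

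Levels were compared between genes in TPM, which corrects for length. In unstimulated cells the order of mean TPM was B2m (2494), H2-D1 (2214), H2-K1 (1004), Tapbp (306), Psmb8 (118), Psmb10 (89.2), Psmb9 (51.2), Tap1 (42.6), Tap2 (39.4) and Nlrc5 (10.6). B2m overlapped H2-D1, and so did each pair of neighbours from Psmb8 down to Tap2, whereas Tap2 and Nlrc5 did not overlap. With LPS, Tap1 (563) moved above Psmb8 (501), Psmb10 (422), Tap2 (254) and Psmb9 (250.2), and only Tap2 and Psmb9 overlapped. With LPS + JQ1, H2-D1 (3610) stood beside B2m (3426) with overlap, and Psmb8 (319) was above Tap1 (283) without it.

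Genes that act around these 10 were counted from 4 lists of the pathway. In the counts that follow, the shares of all genes tested were 31.6% higher and 32.9% lower with LPS, and 24.4% higher and 32.9% lower with LPS + JQ1 against LPS. Of 10 genes of peptide loading and trimming, 6 rose and 1 fell with LPS, and with LPS + JQ1 against LPS 2 rose and 7 fell (median log2 fold change -0.29, against -0.11 for all genes tested). Lap3, a leucine aminopeptidase, was 1647, 1657 and 1596 normalised counts with LPS and 453, 496 and 523 under LPS + JQ1, above the 268, 228 and 264 of unstimulated cells (log2 fold change 0.94, SE 0.12, adjusted p 2.02e-15). Thop1, an oligopeptidase that degrades peptides in the cytosol, moved the opposite way, with 87.7, 88.9 and 117 counts with LPS and 238, 196 and 218 under LPS + JQ1. Lap3 fell by 1.74 and Thop1 rose by 1.15 on the log2 scale with JQ1, and Tapbpl, a tapasin-related protein that edits peptides, fell by 1.08.

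Of 22 other class I heavy chains and class I-like genes, 18 were tested for LPS, of which 14 rose and 1 fell, where 31.6% of all genes rose and 32.9% fell. With LPS + JQ1 against LPS, 17 were tested, of which 1 rose and 14 fell, where 24.4% of all genes rose and 32.9% fell (median log2 fold change -1.31, against -0.97 for the 10 presentation genes). H2-T24 counts were 1295, 1297 and 1288 under LPS and 60.7, 96.9 and 61.6 under LPS + JQ1, below the 275, 127 and 135 of unstimulated cells. H2-Q7 counts were 635, 664 and 566 under LPS and 50.8, 47.4 and 82.5 under LPS + JQ1. H2-M2 counts were 1059, 1122 and 1233 under LPS and 3.31, 1.05 and 6.16 under LPS + JQ1. The classical H2-K1 and H2-D1 kept or gained RNA with JQ1 while these relatives lost most of theirs (H2-T24, -4.14, SE 0.23, and H2-Q7, -3.37, SE 0.52, on the log2 scale). Their similar sequences leave the division of reads uncertain.

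Of 7 constitutive subunits, assembly factors and activators of the proteasome, 7 rose with LPS (31.6% of all genes) and 6 fell with JQ1 during LPS (32.9% of all genes). Psme1 and Psme2, which encode the PA28 activator, fell by 1.21 and 0.86 on the log2 scale. Psme1 counts were 5671, 5412 and 4765 under LPS and 2391, 2063 and 2395 under LPS + JQ1.

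Of 15 regulators of class I genes, 14 were tested. With LPS 12 rose and 2 fell (31.6% and 32.9% of all genes), and with JQ1 during LPS 2 rose and 10 fell (24.4% and 32.9% of all genes). Rfxap was among those that rose with JQ1 during LPS, by 1.29 on the log2 scale (SE 0.18, adjusted p 1.19e-11). Irf1, an interferon regulatory factor that activates class I genes, was 17957, 18925 and 17617 under LPS, 8516, 8460 and 8952 under LPS + JQ1, and 11644, 8572 and 8985 under LPS + IL-10. It fell by 1.07 (adjusted p 1.53e-04) with JQ1 and by 0.90 (adjusted p 0.00637) with IL-10 on the log2 scale, without overlap with LPS in either, and LPS + JQ1 and LPS + IL-10 libraries did overlap (difference -0.17, SE 0.27, adjusted p 0.623). Irf2, which binds the same kind of site, was 4048 ± 135 under LPS, 1705 ± 68.9 under LPS + JQ1 and 3949 ± 56.3 under LPS + IL-10 (SD, n = 3), and its fall with JQ1 was 1.25 on the log2 scale (adjusted p 4.23e-151).

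Of the 10 interferon response genes 8 were tested. All 8 rose with LPS, where 31.6% of all genes did, and 4 fell with JQ1 during LPS, where 32.9% of all genes did. Irf7, the factor that amplifies type I interferon production, was 21449 ± 2072 with LPS and 11598 ± 398 with LPS + JQ1 (SD, n = 3; log2 fold change -0.89, adjusted p 0.0284).

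The genes whose 6 group means of log2(TPM + 1) were most like those of Nlrc5, among 4439 other genes with sufficient counts and spread, were Ogfr, Ptbp3 and Parp9 (Pearson's r at least 0.999). For Tap1 they were Daxx, Irak2 and Papd7, also at 0.999 or more. For H2-K1 they were Mir22hg (0.992), Cd2ap (0.989) and Olr1 (0.987). These values describe 6 points that share the contrast of LPS with no LPS, and no test was attached to them.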

How the data were processed

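RNA-seq was analysed in 18 libraries of bone marrow-derived macrophages, grouped by their titles. The authors prepared stranded libraries depleted of ribosomal RNA, took reads through TagDust and STAR (build mm9), and estimated gene levels with RSEM 1.2.31 at its defaults. The deposited expected counts are RSEM estimates in which a read matching several genes is split, so some were fractional, and they were rounded for the tests. TPM values, abundances that the authors scaled for length, were used as deposited for levels between genes and for ratios. Totals per library ran from 6781952 to 28289498 counts, which put a floor of 3 counts at 0.106 to 0.442 CPM, and such floors cover counting error only.

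DESeq2 1.42.0 in R 4.3.3 (Wald test, group as the only term, all 18 libraries, size factors by median of ratios, default filtering, Benjamini-Hochberg) was the main test, after the methods of the study. Alternatives were edgeR 4.0.16, limma 3.58.1 on log2(TPM + 1) and log2(TPM + 0.1), TMM and total-count scaling, a count filter, a fit to only the groups compared, lane, the replicate block and leaving out libraries. Tests were tried on simulated data first. No pair of replicates agreed within sampling noise (chi-square per degree of freedom 3.97 to 28.3). Replicate numbers name the mice from which the matched cultures came, so they pair the libraries. Deviations from group means of same-numbered libraries correlated between -0.124 and 0.469 over 11390 genes. Replicate 1 was sequenced on lane 7 and replicate 3 on lane 8, and replicate 2 was on lane 7 without LPS and lane 8 with LPS, so LPS groups were matched by lane with each other. Each mouse gave 1 culture per group.

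The 10 genes, the 5 lists around them, the motifs and the tests were chosen with earlier results of these data known. The rule for naming took all 10 genes, up to 4 called genes per list and comparison with the largest fold change and a mean of 100 or more normalised counts, and Psmb5, Psmb6, Psmb7, Irf1, Irf7 and 1 gene that is not reported here in any case; the text gives part of the genes so named. Gene positions are from GENCODE vM1 on mm9, and promoter windows, of 250 bases before to 50 after a start, are from RefSeq on GRCm38.p6.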

Additional observations from a re-analysis of the deposited data

Results flagged for a closer look

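For 4 genes the effect of JQ1 on the log2 scale differed with and without LPS in the interaction test of DESeq2. The difference was -0.293 for H2-D1, which rose with JQ1 only without LPS by this test, and -0.609 for B2m, which fell with JQ1 only when LPS was present. It was -0.660 for Tap1 and -0.657 for Tapbp, which were called lower in both states by the main test. In cells without LPS, leaving out unstimulated replicate 1 took the fall of Tapbp to -0.09 (adjusted p 0.460). Leaving out replicate 1 of every group took that of Tap1 to -0.21 (adjusted p 0.131), and neither passed. Each of the 4 differences rests in part on the unstimulated libraries, where replicate 1 was the highest for all 4 genes. Without it the values were -0.32, -0.71, -1.05 and -0.89. With total-count scaling none of the 4 was called lower: H2-D1 turned to 0.26 and was called, and B2m (-0.06), Tap1 (-0.11) and Tapbp (-0.10) did not pass. H2-D1 and Tap1 also did not pass with edgeR (-0.19 and -0.55) or with TMM scaling (-0.17 and -0.53), where B2m and Tapbp did. Limma on log2(TPM + 1) called none of the 4 lower and called H2-D1 higher (0.22, adjusted p 0.0401).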

How the results depend on the processing

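Among values of single genes under alternatives, 1467 kept their direction and side of the threshold, 45 lost and 22 gained a call, and 6 turned direction while called. The mouse block and the lane changed few calls: with the replicate block, which pairs the libraries by mouse, 1 gene was lower in LPS + IL-10 against LPS in place of 0, and it changed no other call. JQ1 against unstimulated gave 1 gene higher in place of 2 with total-count scaling and with limma on log2(TPM + 1) and log2(TPM + 0.1), and 4 lower in place of 7 in the fit to those groups only and without unstimulated replicate 1. LPS + JQ1 against LPS gave 2 higher in place of 1 with edgeR, TMM, total-count scaling, limma at both pseudocounts and the fit to those groups only. In the interaction of JQ1 and LPS, genes higher were 3 with total-count scaling and 2 with limma at both pseudocounts in place of 0, and genes lower were 2 with edgeR and with TMM, 0 with total-count scaling and limma, and 8 without unstimulated replicate 1, in place of 4. There H2-D1 turned to 0.26 (total-count) and 0.217 (limma, both pseudocounts), and Tap2 to 0.378 (total-count). Without unstimulated replicate 1, 1 gene was higher with IL-10 against unstimulated (Nlrc5, 0.478), 2 were lower in LPS + IL-10 against LPS and 1 in the interaction of IL-10 and LPS, in place of 0 each. In LPS + JQ1 against LPS + IL-10, B2m and Psmb9 lost their calls with total-count scaling and limma. The causes were not tested.

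Leaving out 1 replicate at a time gave 1 to 2 genes higher and 3 to 7 lower in JQ1 against unstimulated, 0 to 1 higher in IL-10 against unstimulated (Nlrc5, with log2 fold changes from -0.507 to 0.47, the latter without replicate 1), 0 to 1 higher in LPS + JQ1 against LPS, 0 to 3 lower in LPS + IL-10 against LPS, 1 to 2 higher in LPS + JQ1 against LPS + IL-10, and 0 to 1 lower in the interaction of IL-10 and LPS. The interaction of JQ1 and LPS had 1 to 4 lower. On the log2 scale, the H2-K1 to B2m ratio ran from 0.735 to 1.048 in LPS + JQ1 against LPS, from 0.65 to 0.935 against LPS + IL-10 and from 0.912 to 1.069 against unstimulated. Psmb10 to Psmb7 ran from -1.11 to -0.529 in JQ1 against unstimulated, Psmb9 to Psmb6 from 1.698 to 1.823 in LPS + IL-10 against IL-10, and Tap1 to Tap2 from -0.119 to -0.012 in LPS + JQ1 against LPS + IL-10. Counts of these genes are far above the floor, so depth limits them little.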
